A study of Homo sapiens with 6 samples.

Results

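The ETS transcription factors examined here were 10 genes, ETV1, ETV4, ETV5, ETS1, ETS2, ELF1, ELF3, ELK1, EHF and ERF, out of 18132 genes measured. Probe sets were taken by name, wherever the platform annotation pairs a probe set with exactly 1 symbol and that symbol is one of these. This gave 39 probe sets, and each gene had between 2 and 8 of them. The cells were BCPAP, a human papillary thyroid carcinoma line. They received a lentivirus with a short hairpin RNA against CSF2, which encodes the cytokine GM-CSF (shCSF2, 3 arrays), or with a non-targeting hairpin (shCtrl, 3 arrays). Both groups were selected with puromycin from 48 hours after transduction, for 7 days. All arrays come from 1 cell line and the replicates are called biological in the labels. Whether each was transduced separately, and how many hairpins were used, is not stated in the sources used here, so p-values measure the spread between these arrays.

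ETS factors share a DNA-binding domain, the ETS domain, which reads a short GGAA core in DNA, and they differ in the sequence around it and in their partners. Several are end points of the RAS-RAF-MEK-ERK cascade: ERK phosphorylates ETS1, ETS2 and ELK1 and makes them stronger activators, it expels the repressor ERF from the nucleus, and it raises transcription of the PEA3 group (ETV1, ETV4, ETV5) by relieving repression by capicua. In papillary thyroid carcinoma this cascade is commonly active, and ETV5 and ETV4 are among the transcripts that follow its activity.

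Values are log2 expression summaries, on which 1 unit is a doubling. The 6 arrays had medians between 5.77 and 5.79, and precision is limited by having 3 arrays a group. CSF2 itself was not analysed here, which leaves the labels unchecked against the gene that was targeted. Of the thyroid markers PAX8 had a mean of 8.07 in shCSF2 and 8.11 in shCtrl arrays, and NKX2-1 had 9.37 and 9.78, a log2 fold change of -0.42 and the 1 call among 7 measured thyroid markers, whereas the thyroglobulin gene TG (4.58 and 4.61) and the iodide transporter gene SLC5A5 (4.57 and 4.68) lay in the lower part of the arrays' range. Of 6 epithelial markers 3 were brighter than the median gene, and 1, KRT8, passed, lower in shCSF2 cells. Among 6 markers each of fibroblasts, endothelium and leukocytes, 1 of each list passed, each lower in shCSF2 cells: COL1A2, TEK and LCP1. The mean level of the 6 markers ran from 4.18 to 4.28 in shCSF2 and 4.32 to 4.44 in shCtrl arrays for fibroblasts, from 5.34 to 5.44 in shCSF2 and 5.47 to 5.55 in shCtrl arrays for endothelium and from 5.38 to 5.42 in shCSF2 and 5.47 to 5.50 in shCtrl arrays for leukocytes, and the part of these differences in the results below was not tested. The mean of the 7 thyroid markers was also lower, 6.34 to 6.37 in shCSF2 and 6.38 to 6.42 in shCtrl arrays. That of the 6 epithelial markers overlapped, 7.85 to 7.89 in shCSF2 and 7.88 to 7.90 in shCtrl arrays. The lower quartile of all probe sets was 4.15 to 4.16 in shCSF2 and 4.18 to 4.20 in shCtrl arrays. The leukocyte-defining gene PTPRC was near the floor of the arrays (2.33 and 2.35), whereas LCP1 was bright (9.50 and 9.82).

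Of the 10 ETS genes, 7 were higher in shCSF2 cells and 1 was lower by the limma test, with an adjusted p below 0.05 over all genes and each gene represented by its brightest probe set. Among all 18132 genes 32.7% passed, 16.7% higher and 16.0% lower. With genes below the median signal left out, 5798 of 9066 genes were called, and most of the 10 ETS genes were brighter than the median gene. The share of all genes is therefore not matched to them for signal. The members were also chosen with earlier results of these data known, so an excess over that share is no test of them. The genes that rose were ETV5, EHF, ELF1, ETS1, ERF, ETS2 and ETV4, the gene that fell was ELF3, and ETV1 and ELK1 did not pass. The median log2 fold change of the 10 genes was 0.23, and their median size without sign was 0.32, where all genes had medians of -0.03 and 0.11. The largest change was 1.51-fold, in ELF3. In all 10 the 3 shCSF2 arrays lay entirely on 1 side of the 3 shCtrl arrays, as they did in 46.7% of all genes. These are bulk arrays, in which fewer cells of a kind and less RNA per cell cannot be told apart.

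**Figure D1:**
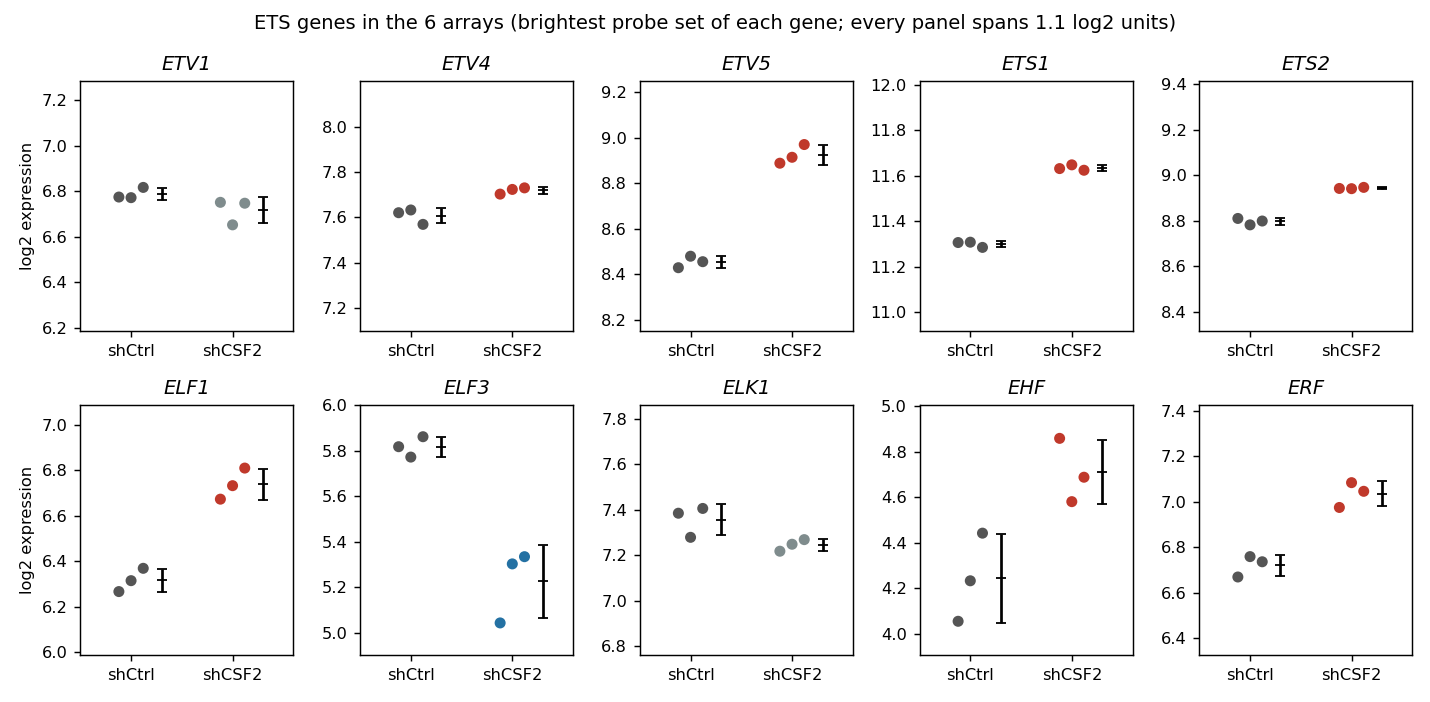
Log2 expression of the 10 ETS genes in each array, from the brightest probe set of each gene; points are arrays (red passed higher, blue passed lower, grey not passed, dark grey control), bars are the mean ± SD of 3 arrays, and every vertical axis spans the same distance on the log2 scale. ETV5, ETS1 and ELF1 rose with a wide gap between groups, ELF3 fell, and the gaps of ETV4, ETV1 and ELK1 were narrow.

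Promoter sequences are shown for the members that passed and whose RefSeq entry (GRCh38.p14) lies directly before the start of the gene, so that a reader can see the DNA in front of genes that moved in the same and in opposite directions. RefSeq entries were matched for 7 of the 10 genes, and those not matched were ETV4, ETV5 and ETS1. Each stretch holds the 250 bases before the start, 5′ to 3′ on the gene's own strand, with capitals marking the ETS core GGAA (TTCC on the other strand) and the TATA box TATAAA.
ETS2, chr21:38804933-38805182, plus strand: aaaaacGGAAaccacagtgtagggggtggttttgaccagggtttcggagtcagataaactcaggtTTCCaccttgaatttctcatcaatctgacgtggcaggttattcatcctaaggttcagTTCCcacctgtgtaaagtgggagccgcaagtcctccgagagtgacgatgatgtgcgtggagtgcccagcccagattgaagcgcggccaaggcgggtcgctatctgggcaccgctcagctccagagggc
ELF1, chr13:41061387-41061636, minus strand: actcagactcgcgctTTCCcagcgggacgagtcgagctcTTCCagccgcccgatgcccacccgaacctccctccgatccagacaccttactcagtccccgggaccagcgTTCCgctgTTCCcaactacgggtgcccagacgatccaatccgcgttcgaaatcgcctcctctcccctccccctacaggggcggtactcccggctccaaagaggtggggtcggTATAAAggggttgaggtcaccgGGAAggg
ERF, chr19:42255129-42255378, minus strand: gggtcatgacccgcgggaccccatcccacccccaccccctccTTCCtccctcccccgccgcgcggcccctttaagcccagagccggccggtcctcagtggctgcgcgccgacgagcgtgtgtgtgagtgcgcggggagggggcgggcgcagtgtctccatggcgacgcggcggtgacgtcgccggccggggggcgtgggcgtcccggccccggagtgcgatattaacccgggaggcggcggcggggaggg
ELF3, chr1:202010337-202010586, plus strand: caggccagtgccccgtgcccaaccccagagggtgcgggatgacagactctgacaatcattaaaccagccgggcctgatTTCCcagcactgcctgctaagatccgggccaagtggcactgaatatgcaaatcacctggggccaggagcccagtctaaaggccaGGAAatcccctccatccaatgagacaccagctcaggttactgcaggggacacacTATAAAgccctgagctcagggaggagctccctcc

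6 motifs were searched on both strands of these windows and of all 35116 windows of the same length in the RefSeq table: GGAA, the longer ETS site CCGGAA, which contains it, TATAAA, the AP-1 site TGANTCA, the CRE site TGACGTCA and the capicua site TGAATGAA. The core GGAA was in 92.7% of all windows, and in all 6 member windows that lie at a gene start, those of ETV1, ETS2, ELF1, ELF3, ELK1 and ERF. CCGGAA was in 1 of these 6, that of ETV1, and in 14.5% of all windows. TATAAA was in 2 of the 6, at 29 to 24 bases before the start of ELF1, which rose, and at 34 to 29 bases before the start of ELF3, which fell, and in 10.7% of all windows. The letters searched for the AP-1, CRE and capicua sites were in 0 of the 6 windows and in 6.57%, 1.65% and 1.40% of all windows. For capicua only TGAATGAA was searched, so other forms of its site were not counted. The ETV1 window holds TGAATGGA, which differs from the letters searched by 1 base. The count of 0 therefore does not show that this window lacks a capicua site.

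Of the PEA3 group, activators that growth factor signalling induces, ETV5 rose, ETV4 rose by little and ETV1 did not pass. ETV5 had log2 values of 8.89, 8.91 and 8.97 in the 3 shCSF2 arrays and 8.43, 8.48 and 8.45 in the 3 shCtrl arrays. Every shCSF2 array lay above every shCtrl array, and the log2 fold change was 0.47 ± 0.04 (SE, limma adjusted p = 0.000186), a 1.38-fold rise. All 4 ETV5 probe sets passed in the same direction, with log2 fold changes from 0.40 to 0.51. ETV4 had 7.70, 7.72 and 7.73 in the 3 shCSF2 arrays and 7.62, 7.63 and 7.57 in the 3 shCtrl arrays. The groups were apart by a narrow gap, and the log2 fold change of 0.11 ± 0.03 was just past the threshold (limma adjusted p = 0.0477). When all probe sets were tested together neither of the 2 ETV4 probe sets passed, although both had a log2 fold change of 0.11. The ETV4 call was also lost in all 6 fits that left out 1 array, where its adjusted p ran from 0.0716 to 0.126. ETV1 had 6.75, 6.65 and 6.75 in the 3 shCSF2 arrays and 6.77, 6.77 and 6.82 in the 3 shCtrl arrays. Its groups were apart by a gap smaller than the spread within shCSF2 cells, and its log2 fold change of -0.07 ± 0.04 did not pass (limma adjusted p = 0.239). All 8 ETV1 probe sets had a negative log2 fold change, from -0.25 to -0.03, and none passed alone. Of these probe sets 2 carry the suffix _x_at, by which the manufacturer marks probes that can bind other sequences, and the brightest carries _s_at, which marks probes shared by several transcripts, possibly of different genes. The brightest probe sets of ETV5, ELF3, ELK1 and EHF also carry _s_at, so 5 of the 10 genes are represented by such a probe set, and whether other transcripts add to their signal was not tested. With the 8 probe sets averaged the value was -0.13 and passed (limma adjusted p = 0.0268).

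ETS1 and ETS2, the founding members, which activate protease and angiogenesis genes together with AP-1, both rose. ETS1 had 11.63, 11.65 and 11.62 in the 3 shCSF2 arrays and 11.31, 11.31 and 11.28 in the 3 shCtrl arrays. The 3 arrays of each group were close together and far from the other group, with a log2 fold change of 0.33 ± 0.03 (SE, limma adjusted p = 0.000355). Its 3 probe sets all passed, with log2 fold changes from 0.33 to 0.48. ETS2 had 8.94, 8.94 and 8.95 in the 3 shCSF2 arrays and 8.81, 8.78 and 8.80 in the 3 shCtrl arrays by its brightest probe set, a log2 fold change of 0.15 ± 0.03 (limma adjusted p = 0.0112). Its other probe set read 7.70, 7.70 and 7.64 in the 3 shCSF2 arrays and 7.07, 7.11 and 7.10 in the 3 shCtrl arrays. The groups did not overlap by either probe set, but the change by the second was 0.58 ± 0.04, and 0.37 with both averaged, so the direction of ETS2 did not depend on the probe set while its size did.

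ELF1, an activator expressed in many cell types and best known from lymphocytes, rose. It had 6.67, 6.73 and 6.81 in the 3 shCSF2 arrays and 6.27, 6.31 and 6.37 in the 3 shCtrl arrays. The groups did not overlap, and the log2 fold change was 0.42 ± 0.05 (SE, limma adjusted p = 0.000786). All 3 ELF1 probe sets passed, with log2 fold changes of 0.42, 0.33 and 0.22 from the brightest to the dimmest. The promoter printed above for ELF1 is one of several RefSeq starts of the gene, and the arrays do not tell the transcripts apart.

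The 2 epithelium-specific members moved in opposite directions, both at low signal. ELF3, which drives differentiation of epithelia and is induced in inflammation, had 5.04, 5.30 and 5.33 in the 3 shCSF2 arrays and 5.82, 5.77 and 5.86 in the 3 shCtrl arrays. All shCSF2 arrays were lower, shCSF2 replicate 1 lowest, and the log2 fold change was -0.59 ± 0.08 (SE, limma adjusted p = 0.00148), a 1.51-fold fall and the largest change among the 10 genes. A second probe set fell by the same amount (-0.61 ± 0.10), while the dimmest did not pass (0.05 ± 0.09), and the 3 averaged gave -0.38. EHF, a relative of ELF3 that is expressed in glandular epithelia, had 4.86, 4.58 and 4.69 in the 3 shCSF2 arrays and 4.06, 4.23 and 4.44 in the 3 shCtrl arrays. The groups did not overlap, and the log2 fold change was 0.47 ± 0.11 (limma adjusted p = 0.0164), with the largest SE of the 10 genes. Its mean log2 value, like that of ELF3, was below that of the median gene. Of the 8 EHF probe sets, whose mean log2 values ran from 2.31 to 4.48, 3 passed higher and 5 did not pass, and with all averaged the change was 0.14 (limma adjusted p = 0.0278).

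ELK1, which with the serum response factor SRF switches on immediate-early genes, did not pass. It had 7.22, 7.25 and 7.27 in the 3 shCSF2 arrays and 7.39, 7.28 and 7.41 in the 3 shCtrl arrays. The groups were barely apart, since shCtrl replicate 2 lay next to shCSF2 replicate 3, and the log2 fold change was -0.11 ± 0.04 (limma adjusted p = 0.101). Without shCtrl replicate 2 it was -0.15 and passed (limma adjusted p = 0.0384). The sign turned by the most variable of its 3 probe sets, the dimmest (0.03 ± 0.14). ERF, a repressor that binds the same sites as the activators, had 6.98, 7.08 and 7.05 in the 3 shCSF2 arrays and 6.67, 6.76 and 6.74 in the 3 shCtrl arrays. The groups did not overlap, and the log2 fold change was 0.31 ± 0.04 (limma adjusted p = 0.00184). The 2 dimmer ERF probe sets did not pass (0.03 ± 0.04 and 0.16 ± 0.08), and the mean of all 3 gave 0.17.

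Counted by probe set, 16 of the 39 passed higher and 2 passed lower in the fit over all 49293 probe sets, of which 15.3% passed higher and 13.8% lower. The groups did not overlap in 26 of the 39, and in 43.8% of all probe sets. The 5 probe sets of ETS1 and ETS2, the 4 of ETV5 and the 3 of ELF1 all passed higher, and the 13 of ETV1, ETV4 and ELK1 did not pass. The remaining 14, of ELF3, EHF and ERF, were split within each gene. Only 15 of the 39 were brighter than the median probe set.

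**Figure D2:**
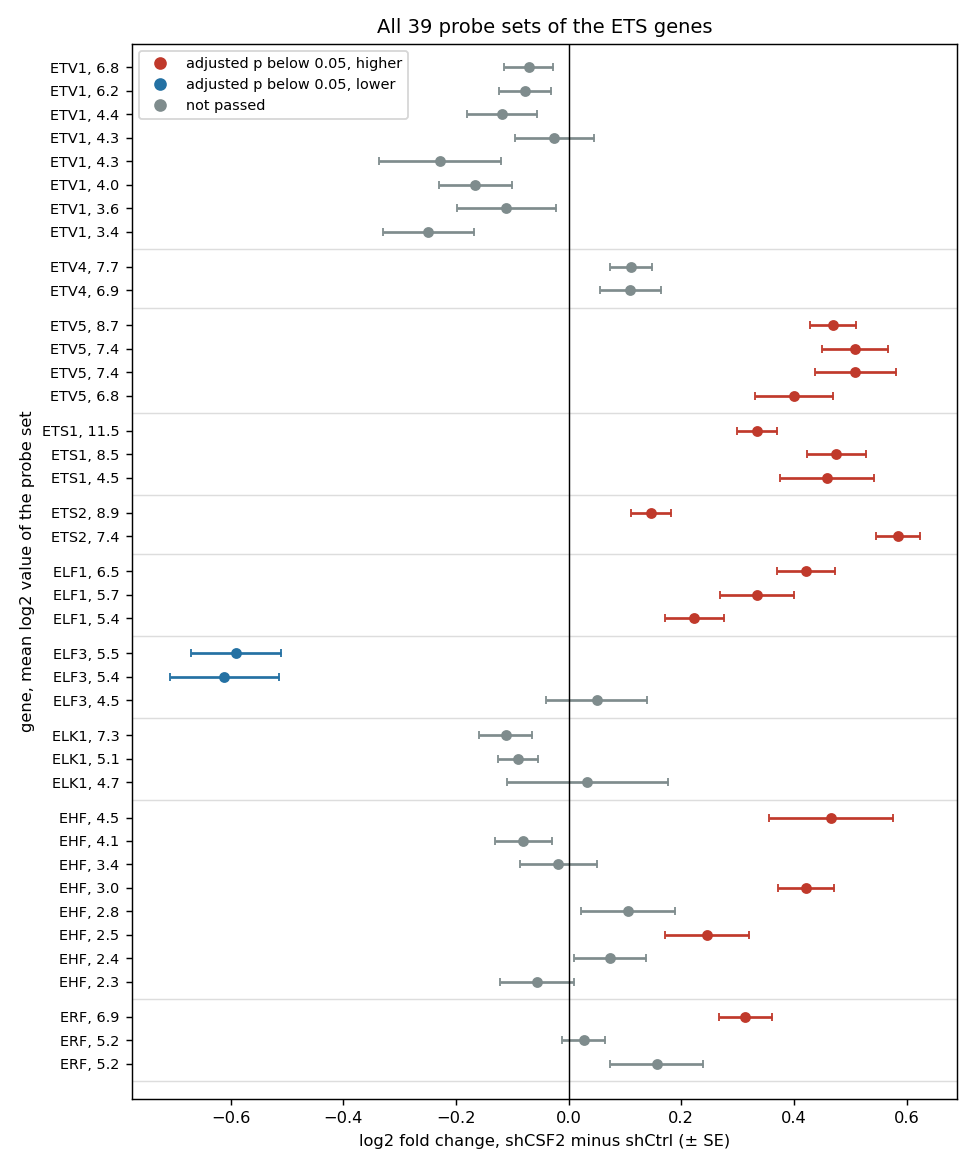
Log2 fold change ± SE of each of the 39 probe sets, grouped by gene and ordered by brightness within a gene; the label gives the gene and the mean log2 value of the probe set over the 6 arrays. The probe sets of ETV5, ETS1 and ELF1 lie together on the higher side, those of ETV1 on the lower side without passing, and those of ETS2, ELF3, EHF and ERF are spread.

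Whether probe sets of 1 gene changed by different amounts was tested with limma's diffSplice, whose F test passed for ETS2 (adjusted p = 7.31e-05), EHF (0.00101) and ELF3 (0.00398), that is for 3 of the 10 members and for 15.7% of 11734 genes with more than 1 probe set. On simulated data this test called genes too readily where probe sets differ in spread, though unequal change was set there in 100 genes, far fewer than were called here. Differences within each array between a probe set and the brightest one of its gene were therefore also tested, an analysis chosen after seeing the data. Of 29 such member differences 4 passed, and of 26856 overall 7.68% passed. The change of the second ETS2 probe set exceeded that of the first by 0.44 ± 0.05 on the log2 scale (SE, limma adjusted p = 0.00496). The dimmest ELF3 probe set differed from the brightest by 0.64 ± 0.07 (limma adjusted p = 0.00521). For ERF the difference was -0.29 ± 0.06 (limma adjusted p = 0.0313) and for EHF, by 1 of its 7 differences, -0.55 ± 0.12 (limma adjusted p = 0.0473). Whether these probe sets read different transcripts of the gene was not tested. No such difference passed for ETV1, ETV4, ETV5, ETS1, ELF1 or ELK1, where the SE of a difference reached 0.15. On simulated data with 100 of 26856 differences set to 0.5, this test recovered 16% of them. Far fewer differences were changed there than passed here, so that rate does not carry over to these data. A difference that did not pass may still be present.

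**Figure D3:**
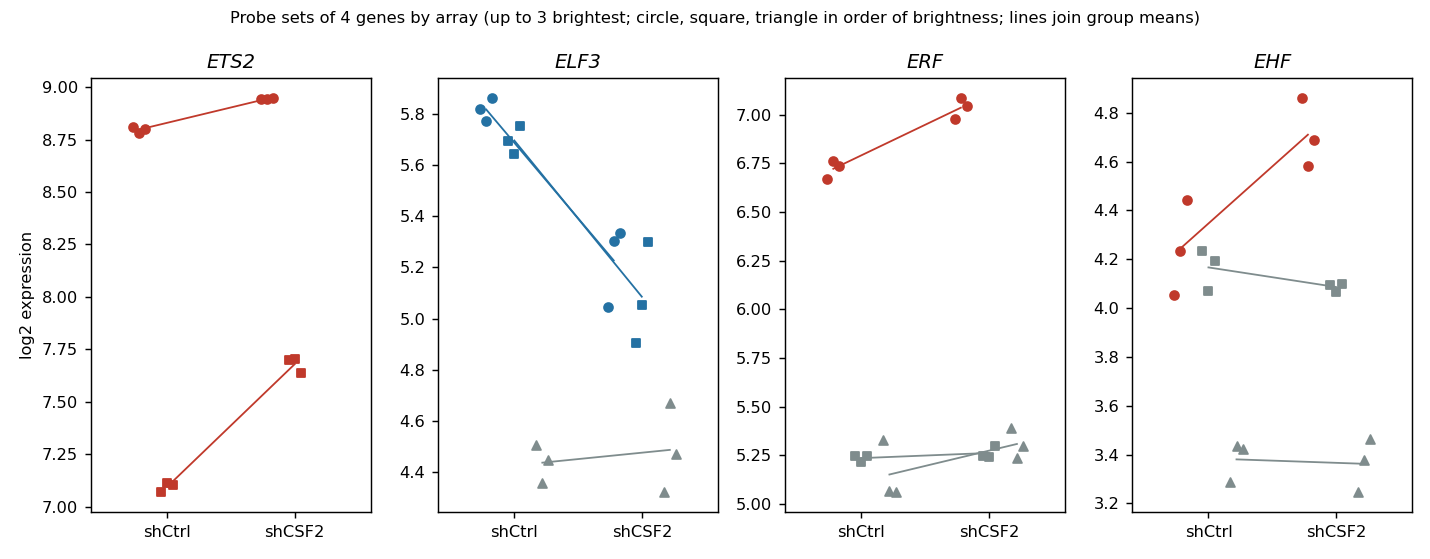
Log2 expression by array of up to 3 probe sets of ETS2, ELF3, ERF and EHF, with lines joining the group means; red passed higher, blue passed lower, grey did not pass. Both ETS2 probe sets rise, the second more steeply, whereas the dimmest ELF3 probe set and the dimmer probe sets of ERF and EHF shown here did not pass. Still dimmer EHF probe sets, not shown, include some that passed higher (log2 fold changes of 0.42 and 0.25).

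The other 18 genes of the ETS family were all measured, and 3 rose, 1 fell and 14 did not pass. Their median log2 fold change was -0.06, and the share that passed was 22.2%, against 32.7% of all genes. ELK3, a partner of SRF like ELK1, rose by 0.47 ± 0.04 (log2 fold change ± SE) with both of its probe sets, from 10.03 ± 0.04 to 10.50 ± 0.06 (mean log2 value ± SD, n = 3). ELF2, a close relative of ELF1, rose by 0.38 ± 0.04, and 5 of its 6 probe sets passed. ELK4, the third SRF partner, rose by 0.21 ± 0.04 with 1 of its 4 probe sets, and by 0.10, which did not pass, when they were averaged. FLI1, an activator known from blood and vessel cells, fell by 0.25 ± 0.04, and 3 of its 4 probe sets passed lower. Among those that did not pass were GABPA (-0.08 ± 0.06), which binds DNA with a GABPB subunit, the repressors ETV6 (-0.11 ± 0.05) and ETV3 (0.02 ± 0.09), and the epithelial factor SPDEF (-0.16 ± 0.06), which did pass without shCtrl replicate 3. With its 3 probe sets averaged ETV6 was -0.17 and passed lower (limma adjusted p = 0.00404), 1 of the 3 passing alone. SPI1, SPIB, SPIC and ELF5 had mean log2 values between 2.15 and 4.06, in the lower part of the arrays' range.

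**Figure D4:**
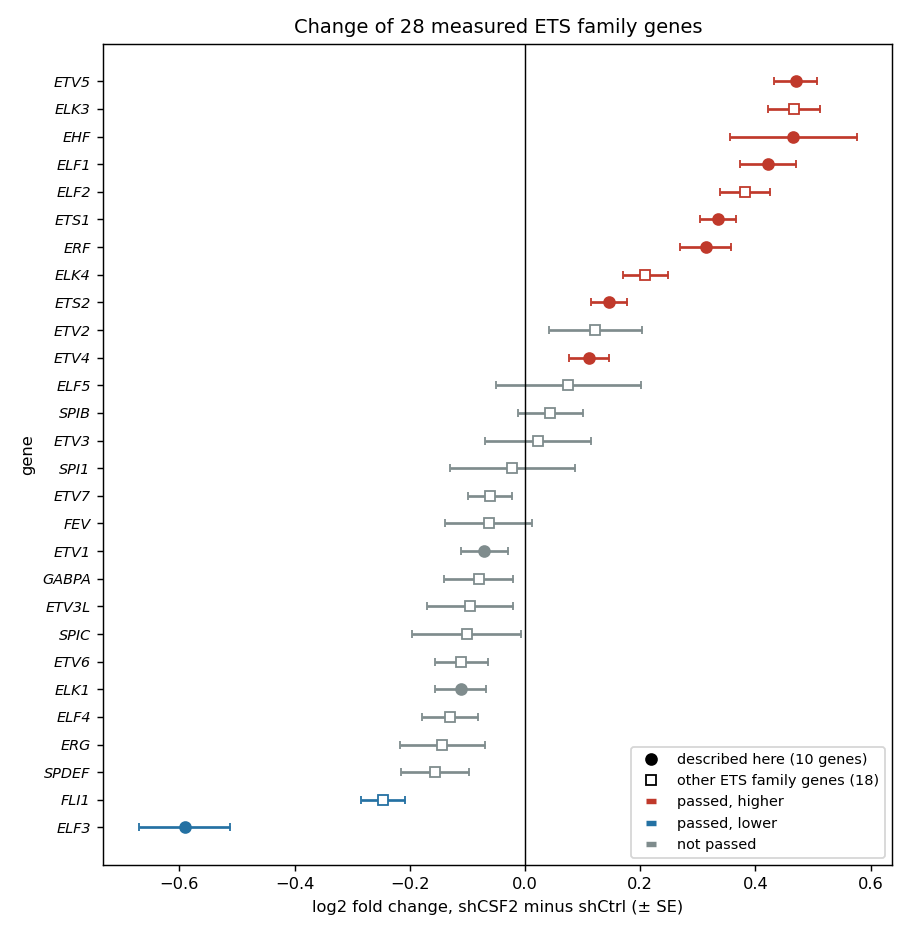
Log2 fold change ± SE of the 28 measured ETS family genes, ordered by size; filled circles are the 10 genes described, open squares the other 18, and colour shows the limma call. ELF3 is the lowest and ETV5 the highest, and ELK3 and ELF2 lie among the higher members.

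Genes that control the PEA3 group moved in both directions. Of 10 genes of the capicua repressor and of ETV protein turnover, 4 rose and 2 fell, a share called of 60%, against 32.7% of all genes. Most of these 10 were brighter than the median gene, so that background is not matched for signal. With genes below the median left out, 5798 of 9066 genes were called. The list was also chosen with earlier results of these data known. ATXN1, a capicua partner, fell by 0.91 ± 0.06 on the log2 scale, by 1 of its 2 probe sets, and by 0.52 with both averaged. TRIB2, a pseudokinase that works with the ubiquitin ligase COP1, fell by 0.79 ± 0.06 with both probe sets. CUL4A, a scaffold of the same ligase class, rose by 0.45 ± 0.05 and TRIB1, a relative of TRIB2, by 0.26 ± 0.04, or by 0.29 and 0.15 with all probe sets averaged. Capicua itself, CIC, named after its value was seen, had a log2 fold change of -0.01 ± 0.04 and did not pass.

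The list of DNA-binding partners of ETS factors had 11 measured genes, some of them cofactors rather than DNA-binding proteins. Of these 2 rose and 2 fell, with a median of -0.04. The share called of 36.4% is near the 32.7% of all genes. The AP-1 genes JUN (0.25 ± 0.04) and FOS (0.16 ± 0.04) rose, both with all 4 probe sets, and FOS by 0.61 when these were averaged. By its brightest probe set the FOS call (limma adjusted p = 0.0314) was lost in 5 of 6 fits that left out 1 array, those without any 1 of the 3 shCSF2 arrays or without shCtrl replicate 2 or 3, where all 6 gave an adjusted p of 0.0294 to 0.0833, and with the replicate number as a block (0.054). SRF fell by 0.29 ± 0.04 and RUNX2, a runt-domain factor best known from bone, by 0.26 ± 0.04, each by 1 of 2 probe sets. With both averaged SRF was -0.17 and RUNX2 -0.16, and RUNX2 no longer passed.

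Transcripts listed as responding to ERK, through capicua or through ETS sites, were mostly higher. Of 17 ERK and capicua output genes 11 rose and 3 fell, a share of 82.4% called against 32.7% of all genes, and their log2 fold changes had a median of 0.30. The largest rises were those of MAFF (0.76 ± 0.04), a small MAF factor, and LIF (0.67 ± 0.05), a cytokine of the IL-6 family. EPHA4 (-0.22 ± 0.06) and SPRY1 (-0.19 ± 0.05) fell, EPHA4 with 1 probe set passing in each direction and SPRY1 with all 3 lower. With all probe sets averaged EPHA4 no longer passed (-0.07) and SPRY1 was -0.38. The EPHA4 call was lost without any 1 of the 3 shCtrl arrays (limma adjusted p 0.0253 to 0.0901 over the 6 fits that left out 1 array). The SPRY1 call was lost without shCSF2 replicate 1 or 3 or shCtrl replicate 2 or 3 (limma adjusted p 0.0201 to 0.101). Of 14 measured genes listed as serum response genes of ELK factors and SRF, 9 rose and 2 fell, a share of 78.6% called, with a median of 0.18. Whether these factors bind them in these cells was not tested. EGR1 (1.50 ± 0.04), an immediate-early zinc finger factor, and PPP1R15A (0.72 ± 0.04), a phosphatase subunit of the stress response, rose most, and NR4A1 (-0.25 ± 0.04), a nuclear receptor, fell together with SRF itself. Most genes of both lists were brighter than the median gene. With genes below the median left out, 5798 of 9066 genes were called, so the 32.7% of all genes is not matched to these lists for signal. Both lists were also chosen with earlier results of these data known, so an excess over that share is no test of them.

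Of 17 measured protease and invasion genes listed as carrying ETS sites 5 rose, 1 fell and 11 did not pass. The share called was 35.3%, near the 32.7% of all genes, with a median of 0.04. MMP10 (1.44 ± 0.08), a stromelysin, and PLAU (0.44 ± 0.03), the urokinase plasminogen activator, rose most, and the integrin gene ITGB3 fell by 0.68 ± 0.04 with all 7 probe sets. Of 20 measured epithelial genes of the kind that ELF3 and EHF accompany, 0 rose and 2 fell by limma, with a median of -0.03. The share called was 10%, against 32.7% of all genes, and most of the 20 were dimmer than the median gene. At an unadjusted p under 0.05 the counts were 1 higher and 4 lower. The share of all genes at that threshold was not computed, so these counts have no background to be read against. The keratin gene KRT8 fell by 0.26 ± 0.05 with all 8 probe sets, and SPINT1, a protease inhibitor, by 0.21 ± 0.04 with 1 of 5, or by 0.12 with all averaged. CLDN4, a claudin of tight junctions, was 0.11 ± 0.05 by its brightest probe set and did not pass, but 2 of its 3 probe sets passed higher, and their average of 0.23 passed too (limma adjusted p = 0.00231). It also passed higher without shCSF2 replicate 2. The lists share FOS and SRF between partners and serum response genes, and their counts and medians carry no test of their own.

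**Figure D5:**
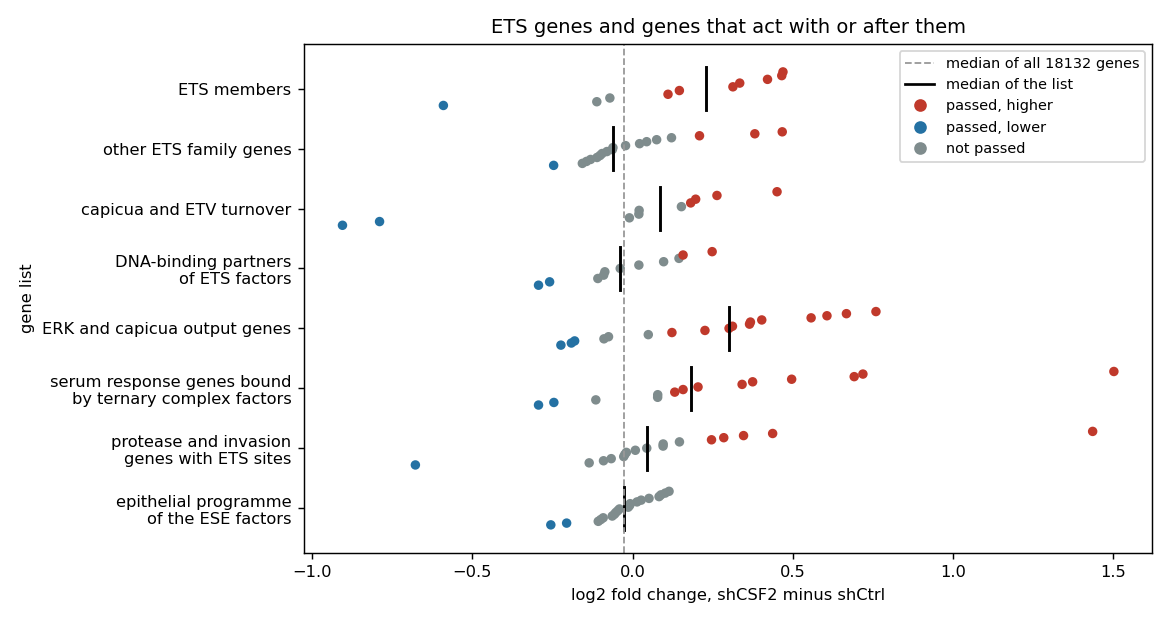
Log2 fold change of every measured gene in the ETS group and in the 7 related lists; points are genes coloured by limma call, black lines are list medians and the dashed line is the median of all genes. The medians of the ETS members, the ERK and capicua output genes and the serum response genes lie furthest to the right of the dashed line. Those of the capicua and ETV turnover genes and the protease genes lie less far to its right. Those of the other ETS genes and the DNA-binding partners lie slightly to its left, and that of the epithelial genes lies on it.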

How the data were processed

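The deposited values are log2 expression summaries by the authors, 1 per probe set and array, from Affymetrix PrimeView arrays hybridised with labelled RNA made from 200 ng of total RNA, per the labels' protocols. RMA, oligo and limma are named, with no version, in the submitters' processing notes. RMA compresses differences at low signal, which bears on ELF3 and EHF, and probe-level data were not used here. Of 49395 rows, 102 controls were left out. The annotation paired 44988 probe sets with 1 symbol, and 0 of the others named a member. The probe set with the highest mean stood for its gene.

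Differences (shCSF2 minus shCtrl) were fitted in R 4.3.3 by limma 3.58.1 (lmFit, eBayes), over 18132 genes and separately over 49293 probe sets. P-values were adjusted by Benjamini-Hochberg and called below 0.05. Probe sets within a gene were compared with diffSplice. The tests were tried on simulated data. All members are named. From each list the text names the 2 genes with the largest passing change in each direction, and any measured gene of the ETS family. The members and lists were chosen with earlier results of these data known. Alternatives covered dim-signal filters, normalisation, the variance model, array weights, the probe set rule, a replicate block and leaving out each array. Figures were drawn with matplotlib 3.10.9.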

Additional observations from a re-analysis of the deposited data

How the results depend on the processing

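The count of members called higher was 6 or 7 under all 16 alternatives, against 7, and the directions of the 8 called genes did not change in any alternative that measured them. Filters on dim signal removed EHF, and the stricter one also ELF3, so these gave no value there. The count called lower was 2 instead of 1 after repeated quantile normalisation and cyclic loess, where ELK1 passed, and with all probe sets averaged, where ETV1 passed. It ran from 1 to 2 when 1 array was left out, and was 2 only without shCtrl replicate 2, where ELK1 passed. The stricter dim filter kept the count at 1, but with ELK1 in place of ELF3. By its most variable probe set, which is its dimmest (mean 4.67), ELK1 was 0.033, against -0.11. Its SE was 0.14 in the fit over all probe sets. The within-array difference of this probe set from the brightest was 0.14 ± 0.15 and did not pass (limma adjusted p = 0.655). The ETV4 call was lost in 11 of 16 alternatives. With probe sets below the median left out, 1 member probe set was called lower, against 2: both ELF3 probe sets lay below the median and were left out, and the brightest ELK1 probe set passed instead (limma adjusted p = 0.0401). With either dim filter 1 member, ETS2, had unequal probe sets, against 3, since these filters left out every EHF probe set and the dimmest of ELF3. Replicate numbers are shared between groups, but deviations of same-numbered arrays correlated by 0.03 to 0.05, although 6 of 6 arrays were closest to their own number in the other group. With the replicate number as a block, 6 members were called higher and 1 lower, where ETV4 lost its call. Over all genes 4918 to 6854 were called, against 5930. The dim filters tested fewer genes than the 18132 of the main fit, so a larger share passed there. By the milder filter 6396 of 12435 were called, and by the stricter 5798 of 9066. Among the related lists, other ETS genes called lower ran from 1 to 4, DNA-binding partners called higher from 1 to 3, ERK output genes called lower from 1 to 4 and epithelial genes called higher from 0 to 2, and proteases called higher reached 8, against 5.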

Other observations

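Other genes of the related lists, picked after seeing their values, complete the picture around the ETS factors. COP1, the ubiquitin ligase that marks ETV proteins for breakdown, rose by 0.20 ± 0.04 (log2 fold change ± SE, limma adjusted p = 0.0109), with 1 of its 2 probe sets passing, and ATXN1L, a relative of ATXN1 that also binds capicua, rose by 0.18 ± 0.04. Among ERK outputs the feedback inhibitor genes SPRED1 (0.56 ± 0.06), SPRY4 (0.40 ± 0.03) and DUSP6 (0.37 ± 0.03) and the AP-1 gene FOSL1 (0.37 ± 0.04) rose by their brightest probe sets. For SPRY4 2 of 3 probe sets passed higher and 1 lower, and their average of 0.07 did not pass (limma adjusted p = 0.29). For SPRED1 3 of 5 passed higher and 1 lower, with an average of 0.17, while DUSP6 (0.35) and FOSL1 (0.35) kept their size and every probe set of both passed higher. The phosphatase gene DUSP4 (-0.09 ± 0.03) and the cyclin gene CCND1 (0.05 ± 0.04) did not pass.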
